A study of Mus musculus with 14 samples.

Results

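The perilipins are the proteins that coat lipid droplets, the stores of triglyceride in a cell. Mice have 5 perilipin genes, Plin1 to Plin5, and all 5 were found by symbol among the 55471 genes of the count table of this study. Each of them passed the filter on low counts, so that 5 of 5 entered the tests. The tissue was brown adipose tissue (BAT), a fat depot that burns its stored lipid to make heat. AdC3KO mice lack calsyntenin-3b (CLSTN3B) in adipocytes, and WT mice were their wild-type controls. CLSTN3B is a protein made from the Clstn3 locus, which the title of the study links to the size of lipid droplets and to heat production. The animals, males aged 10 weeks, had first spent 2 weeks at 30 °C, a temperature at which a mouse needs little extra heat. Cold-exposed mice of either genotype were then placed at 4 °C for 6 h. There were 4 libraries of AdC3KO and 4 of WT at 4 °C, and 3 of AdC3KO and 3 of WT at 30 °C. The promoter that restricts the deletion to adipocytes is not given in the sources used here.

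Perilipins decide which enzymes reach the fat inside a droplet. In resting adipocytes PLIN1 holds ABHD5, the coactivator of the triglyceride lipase ATGL (gene Pnpla2). When noradrenaline activates protein kinase A, PLIN1 is phosphorylated and lets ABHD5 go. PLIN2 coats droplets in most cell types and is degraded when it has no droplet to bind. PLIN3 is a cytosolic protein that moves onto small, newly made droplets. PLIN4 is abundant in adipocytes and also coats nascent droplets. PLIN5 is found in tissues that oxidise much fat, among them BAT, heart and muscle, where it tethers droplets to mitochondria.

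Libraries held between 19.9 M and 29.0 M gene counts (M, 1e6 counts), and values are given as counts per M (CPM) with TMM scaling. Clstn3, the locus of the deletion, averaged 65.8 ± 11.9 CPM in AdC3KO at 4 °C against 1109.6 ± 97.4 CPM in WT at 4 °C (SD, n = 4 per group). It averaged 15.8 ± 1.31 CPM in AdC3KO at 30 °C against 206.6 ± 23.2 CPM in WT at 30 °C (SD, n = 3 per group), so that the genotype labels and the locus go together. The 10 brown adipocyte markers, Ucp1 among them, were detected in every group. Their summed level was 18971 to 24589 CPM in AdC3KO and, in WT, 17256 to 20901 CPM at 4 °C. It was 4403 to 6352 CPM in AdC3KO and, in WT, 4614 to 5605 CPM at 30 °C. The markers did not all follow this sum. With cold, 4 of the 10 rose and 2 fell in AdC3KO (median log2 fold change 0.09), and 4 rose and 4 fell in WT (median −0.21). Of 10 general adipocyte markers, 4 rose and 4 fell in AdC3KO, and 5 rose and 3 fell in WT. Over all tested genes, 31% were called higher and 32.1% lower in AdC3KO, and 30.6% and 30.8% in WT. Skeletal muscle transcripts (12 markers, summed) stood far above the rest in 5 libraries. These were AdC3KO at 4 °C replicate 3 with 494 CPM, WT at 4 °C replicate 2 with 50.8 CPM, AdC3KO at 30 °C replicates 1 and 2 with 75.3 and 34.2 CPM, and WT at 30 °C replicate 3 with 213 CPM. The other 9 libraries had 1.39 to 3.65 CPM, and Tnnc2 was at 0 in every group but WT at 30 °C. The 12 macrophage markers summed to 264 to 441 CPM in AdC3KO and, in WT, 324 to 648 CPM at 4 °C, and to 177 to 262 CPM in AdC3KO and, in WT, 181 to 211 CPM at 30 °C, and 6 of them rose with cold in AdC3KO and 8 in WT, with 0 lower, where 31% of all tested genes were called higher in AdC3KO and 30.6% in WT. The 10 endothelial markers summed to 1669 to 1962 CPM in AdC3KO and, in WT, 1566 to 1768 CPM at 4 °C, and to 882 to 1003 CPM in AdC3KO and, in WT, 849 to 1148 CPM at 30 °C, and 6 rose and 3 fell with cold in AdC3KO and 6 rose and 4 fell in WT. The 6 red blood cell markers summed to 497 to 623 CPM in AdC3KO and, in WT, 327 to 599 CPM at 4 °C, and to 245 to 385 CPM in AdC3KO and, in WT, 276 to 358 CPM at 30 °C, and of 5 tested 5 rose in AdC3KO and 4 in WT. The white adipocyte markers summed to 1158 to 1319 CPM in AdC3KO and, in WT, 904 to 1407 CPM at 4 °C, with Tcf21 at 0, and to 346 to 449 CPM in AdC3KO and, in WT, 279 to 478 CPM at 30 °C, and of 7 tested 2 rose and 2 fell in AdC3KO and 2 rose and 1 fell in WT. For muscle, the perilipin values without the 5 libraries are given below, and the part of the other cell types in the perilipin values was not tested.

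The perilipin genes lie on 3 chromosomes (GRCm38), all on the minus strand and all protein coding. Plin1 (ENSMUSG00000030546) is at chr7:79720218-79732903 and Plin2 (ENSMUSG00000028494) at chr4:86648386-86670060. The other 3 are on chromosome 17, with Plin4 (ENSMUSG00000002831) at chr17:56100591-56109803, Plin5 (ENSMUSG00000011305) at chr17:56111601-56117596 and Plin3 (ENSMUSG00000024197) at chr17:56277476-56292873. Plin4 and Plin5 are direct neighbours with 1797 bp between them. The exons of Plin1, Plin2, Plin3 and Plin5 share no base with another gene, and Plin4 shares 17 bp (0.29% of its exon sequence) with Hdgfl2 on the other strand.

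The first question was how the family responds when the tissue is called on to make heat. After 6 h at 4 °C, transcripts of Plin2 and Plin4 were higher and those of Plin3 lower than at 30 °C in either genotype. Plin5 was higher in WT, and Plin1, the perilipin that guards the droplets of resting adipocytes, passed the test in neither genotype. Of the 5 genes, 2 were called higher and 1 lower in AdC3KO, and 3 higher and 1 lower in WT. Cold moved much of the transcriptome: 63% of the 15949 tested genes were called in AdC3KO and 61.4% in WT (edgeR quasi-likelihood F-test, Benjamini-Hochberg adjusted p at 0.05). The share of perilipins called is therefore near that of all genes, and it is the size and direction of each gene's change that is described here. The groups at 4 °C and 30 °C did not overlap for 64.1% of genes in AdC3KO and 60.3% in WT. In bulk tissue, fewer cells of a type and less RNA per cell cannot be told apart.

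**Figure D1:**
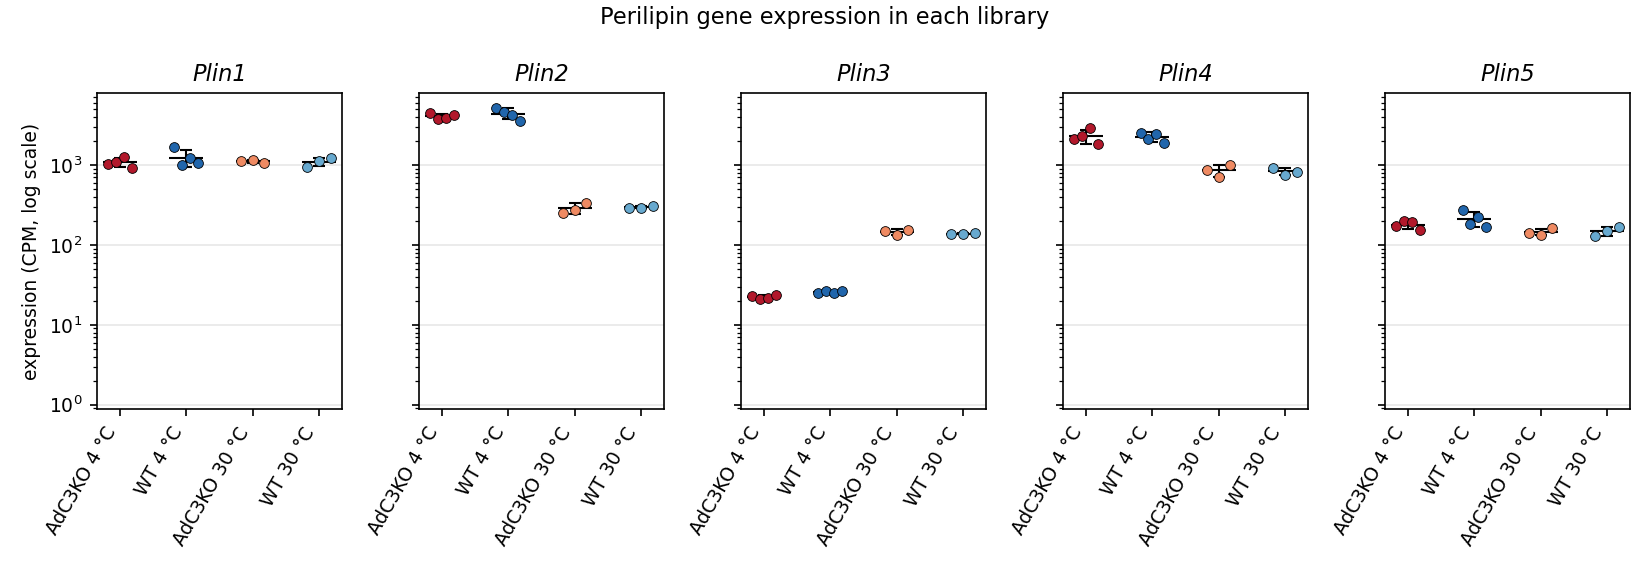
CPM of the 5 perilipin genes (vertical axis, log scale) in each of the 14 libraries (points), with a line at the group mean and whiskers of 1 SD, for AdC3KO and WT at 4 °C and at 30 °C. All Plin2 and Plin4 points at 4 °C lie above all those at 30 °C, all Plin3 points at 4 °C lie below, and the Plin1 points of the 4 groups overlap between 914.5 and 1667 CPM.

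Plin2 had 4403, 3783, 3858 and 4266 CPM in the AdC3KO libraries at 4 °C, against 249.97, 271 and 336 CPM in AdC3KO at 30 °C. In WT it had 5181, 4621, 4259 and 3540.4 CPM at 4 °C, against 292.2, 292.5 and 309.7 CPM at 30 °C. Every library at 4 °C was more than an order of magnitude above every library at 30 °C. The fold was 14.3 in AdC3KO, with a log2 fold change of 3.84 (SE 0.16, adjusted p = 3.52e-11), and 14.8 in WT, with 3.88 (SE 0.16, adjusted p = 3.66e-11; edgeR). Plin2 stood 181st among the tested genes by rise in AdC3KO and 175th in WT. By CPM it was the 19th most abundant tested gene at 4 °C in either genotype, against 323rd in AdC3KO and 297th in WT at 30 °C.

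Plin4, the other droplet coat that rose in both genotypes, was abundant at both temperatures. It had 2126, 2294.5, 2925 and 1852 CPM in AdC3KO at 4 °C, against 856, 708 and 1010.3 CPM in AdC3KO at 30 °C. In WT it had 2523, 2120.2, 2464 and 1879 CPM at 4 °C, against 921, 746 and 822 CPM at 30 °C. The groups did not overlap in either genotype. Plin4 was 2.68-fold higher in the cold in AdC3KO (1.42 in log2, SE 0.17, adjusted p = 1.7e-06) and 2.71-fold higher in WT (1.44, SE 0.17, adjusted p = 1.61e-06; edgeR). The highest Plin4 value, 2925 CPM, came from the AdC3KO library with the most muscle transcripts. In each other group the highest Plin4 value came from a library with few of them. These were WT at 4 °C replicate 1, AdC3KO at 30 °C replicate 3 and WT at 30 °C replicate 1, with 3.65, 2.33 and 2.82 CPM of muscle markers. Without the 5 libraries with muscle transcripts the log2 fold change was 1.05 in AdC3KO and 1.45 in WT. AdC3KO at 30 °C then had 1 library left, which is taken to vary like the others. It was replicate 3, which had the highest Plin4 value of its group (1010.3 CPM).

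Plin3 went the opposite way. It had 23.2, 21.3, 21.9 and 23.4 CPM in AdC3KO at 4 °C, against 149, 132 and 155 CPM in AdC3KO at 30 °C. In WT it had 25.0, 26.5, 24.8 and 26.7 CPM at 4 °C, against 136, 138 and 139 CPM at 30 °C. The 4 values within each cold group differed by less than 3 CPM, while the temperatures lay more than 100 CPM apart. Plin3 fell 6.47-fold in AdC3KO (−2.69 in log2, SE 0.08, adjusted p = 9.66e-13) and 5.35-fold in WT (−2.42, SE 0.08, adjusted p = 2.48e-12; edgeR). It was the 497th lowest gene by log2 fold change in AdC3KO and the 633rd lowest in WT. Its place by abundance was 5626th in AdC3KO and 5248th in WT at 4 °C, against 736th in AdC3KO and 789th in WT at 30 °C.

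Plin5, the perilipin of oxidative tissues, changed by less. In WT it had 272, 184, 224 and 169 CPM at 4 °C, against 129, 148 and 168 CPM at 30 °C, and the groups did not overlap, although 169 and 168 CPM nearly met. The log2 fold change in WT was 0.51 (SE 0.15, adjusted p = 0.00639, edgeR), or 1.43-fold. In AdC3KO it had 173, 197, 192 and 155 CPM at 4 °C, against 142, 134 and 161 CPM at 30 °C, and the groups overlapped. The log2 fold change there was 0.30 (SE 0.15, 95% interval −0.01 to 0.61, adjusted p = 0.0851, edgeR). Calls in AdC3KO depended on the fit: when only the AdC3KO libraries entered, the adjusted p was 0.0337, and without the WT library at 4 °C with 272 CPM (replicate 1) or that with 169 CPM (replicate 4) it was 0.0351 or 0.0359, in fits whose spread all groups share. The AdC3KO value was 0.07 under upper-quartile scaling (adjusted p = 0.707) and 0.11 without the 5 libraries with muscle transcripts (adjusted p = 0.735; edgeR). The WT call was lost under upper-quartile scaling, where the log2 value was 0.27 (adjusted p = 0.113, edgeR). The difference between the genotypes' responses was itself tested and did not pass, as given below for the interaction.

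Plin1 had 1034, 1097, 1263 and 914.5 CPM in AdC3KO at 4 °C, against 1127, 1146 and 1067 CPM in AdC3KO at 30 °C. In WT it had 1667, 1011, 1218 and 1059 CPM at 4 °C, against 949, 1108 and 1206 CPM at 30 °C. The temperatures overlapped in either genotype, and the WT library with 1667 CPM stood above the rest. The log2 fold change was −0.05 in AdC3KO (SE 0.16, 95% interval −0.38 to 0.28, adjusted p = 0.805) and 0.19 in WT (SE 0.16, 95% interval −0.14 to 0.52, adjusted p = 0.315; edgeR). These intervals leave out changes of the size of those of Plin2, Plin3 and Plin4. Without the WT library at 4 °C with 1667 CPM (replicate 1) the WT value was −0.001.

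**Figure D2:**
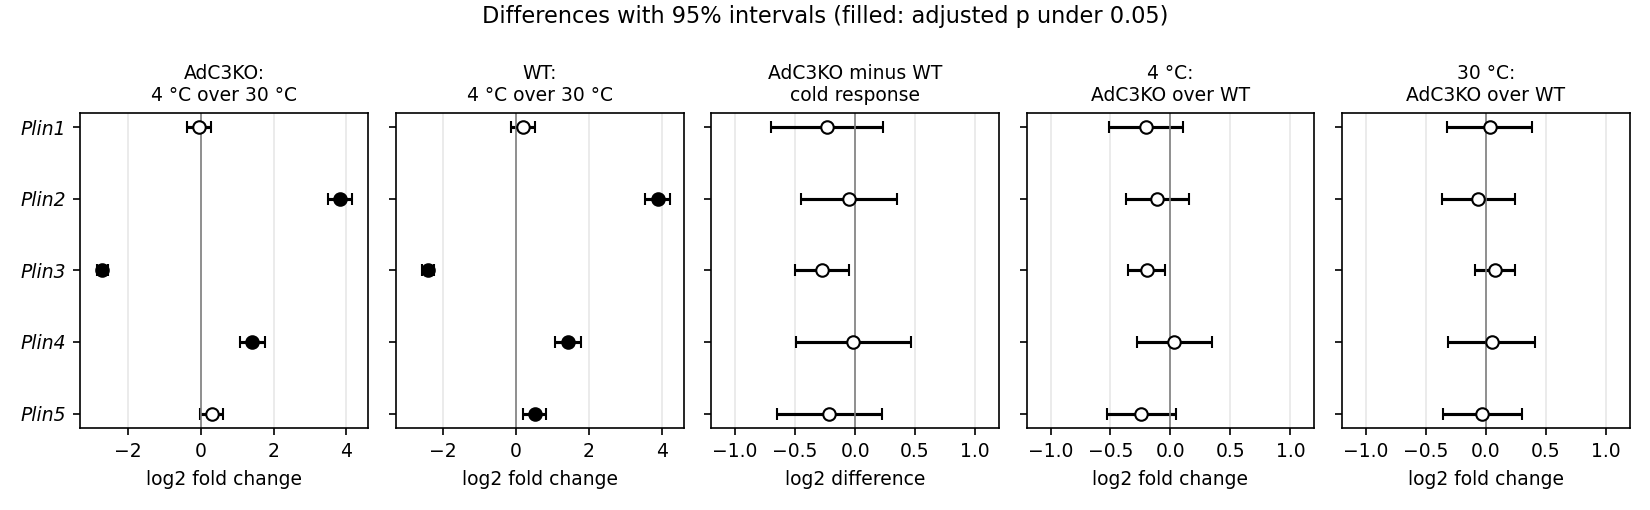
Log2 fold changes of the 5 perilipin genes with 95% intervals (horizontal axis) for 4 °C over 30 °C in AdC3KO and in WT, for the interaction, and for AdC3KO over WT at 4 °C and at 30 °C, with filled points where the adjusted p passed; the horizontal scale of the first panels is wider. The cold values run from −2.69 for Plin3 to 3.88 for Plin2, while all genotype and interaction values lie between −0.27 and 0.08.

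The promoters of Plin2, Plin3 and Plin4 are shown because these are the genes that passed the cold test in both genotypes, with opposite directions. Each sequence is the 250 bases before the start of the gene in RefSeq (GRCm38.p6), written 5′ to 3′ along the minus strand, and capitals mark matches to the searched motifs. RefSeq starts can differ from those of the gene positions given above, which are from GENCODE. The Plin3 window lies inside the gene as placed above, as does the Plin5 window at chr17:56117299-56117548. Positions are counted from the RefSeq start. Both strands were searched. Nuclear receptors bind the motif AGGTCA, and PPAR with RXR binds its direct repeat, AGGTCANAGGTCA. CREB, which protein kinase A activates, binds the palindrome TGACGTCA or its shorter form, TGACG, which lies within it. The E-box was searched as CACGTG and the CCAAT box as CCAAT.
Plin2, chr4:86670060-86670309: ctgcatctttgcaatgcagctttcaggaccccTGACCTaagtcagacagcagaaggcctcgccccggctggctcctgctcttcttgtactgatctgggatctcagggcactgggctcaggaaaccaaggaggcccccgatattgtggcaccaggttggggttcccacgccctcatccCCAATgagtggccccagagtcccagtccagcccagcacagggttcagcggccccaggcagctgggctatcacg
Plin3, chr17:56290512-56290761: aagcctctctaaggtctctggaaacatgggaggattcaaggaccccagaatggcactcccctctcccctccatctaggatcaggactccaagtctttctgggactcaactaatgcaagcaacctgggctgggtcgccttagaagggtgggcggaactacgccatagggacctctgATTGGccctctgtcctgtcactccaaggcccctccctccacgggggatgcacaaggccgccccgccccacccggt
Plin4, chr17:56109783-56110032: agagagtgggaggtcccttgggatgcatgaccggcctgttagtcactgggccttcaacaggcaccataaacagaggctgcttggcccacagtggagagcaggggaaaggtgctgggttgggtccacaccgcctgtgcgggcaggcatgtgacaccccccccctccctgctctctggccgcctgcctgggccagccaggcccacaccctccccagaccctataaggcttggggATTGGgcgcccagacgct

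In Plin2 the capitals are TGACCT, the reverse complement of AGGTCA, beginning 218 bases before the start, and CCAAT beginning 73 bases before it. Plin2 also has CACGTG beginning 4 bases before the start and running past it, which is not in capitals. Plin3 has ATTGG, the reverse complement of CCAAT, beginning 75 bases before the start, and Plin4 has ATTGG beginning 18 bases before it. The searched windows ran from 250 bases before to 50 after the start. All 5 members matched the table, in 6 windows, since Plin5 has 2. AGGTCA was in 3 of these 6 windows (the Plin2 window and both of Plin5) and in 16.3% of all 32851 promoter windows. CCAAT was in 4 of the 6 and in 37.4% of all, and CACGTG was in 1 of the 6 and in 7.15% of all. TGACG (20.8% of all), TGACGTCA (1.79%) and the repeat AGGTCANAGGTCA (0.0396%) were in 0 of the 6. A match is a description of these letters, and no match says only that the letters are not in this window.

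To set the genes beside each other, CPM were divided by the length of each gene's exons in kb. On this scale, which gives levels, the family had a different make-up at the 2 temperatures. At 4 °C the order was Plin2, Plin4, Plin1, Plin5 and Plin3, with Plin2 at 1161 and Plin3 at 5.93 CPM per kb in AdC3KO, and Plin2 at 1253 and Plin3 at 6.80 CPM per kb in WT. At 30 °C the order was Plin1, Plin4, Plin2, Plin5 and Plin3, with Plin1 at 239 and Plin3 at 38.4 CPM per kb in AdC3KO, and Plin1 at 234 and Plin3 at 36.4 CPM per kb in WT. Neighbours in the order whose ranges overlapped were Plin4 and Plin1 in WT at 4 °C (means of 389 and 266 CPM per kb) and Plin2 and Plin5 in AdC3KO at 30 °C (81.3 and 69.8 CPM per kb). With the longest transcript as the length, Plin1 (439.7 CPM per kb) stood above Plin4 (390.3 CPM per kb) in WT at 4 °C, and Plin2 stood above Plin4 at 30 °C (151 against 149 CPM per kb in AdC3KO, 158 against 144 CPM per kb in WT), so that the places of these pairs depend on the length used.

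The summed level of the family was 1883 ± 83.9 CPM per kb in AdC3KO and 2017 ± 309.8 CPM per kb in WT at 4 °C (SD, n = 4 per group), and 577 ± 37.3 CPM per kb in AdC3KO and 569.9 ± 32.7 CPM per kb in WT at 30 °C (SD, n = 3 per group). Plin2 made up 61.8 ± 5.16% of it in AdC3KO and 62.1 ± 2.59% in WT at 4 °C, against 14.05 ± 1.49% in AdC3KO and 14.9 ± 0.372% in WT at 30 °C. Plin1 made up 12.3 ± 1.34% in AdC3KO and 13.2 ± 1.69% in WT at 4 °C, against 41.6 ± 4.12% in AdC3KO and 41.0 ± 3.03% in WT at 30 °C. The CPM of Plin1 did not pass the test, and its share was lower at 4 °C beside the higher level of Plin2. The share of Plin4 differed less, at 21.1 ± 3.53% in AdC3KO and 19.4 ± 1.39% in WT at 4 °C and 25.6 ± 2.92% in AdC3KO and 25.3 ± 3.45% in WT at 30 °C. Plin5 had 4.56 ± 0.489% in AdC3KO and 5.01 ± 0.454% in WT at 4 °C, against 12.1 ± 0.385% in AdC3KO and 12.4 ± 0.956% in WT at 30 °C. Plin3 had 0.315 ± 0.0199% in AdC3KO and 0.344 ± 0.0640% in WT at 4 °C, against 6.64 ± 0.262% in AdC3KO and 6.40 ± 0.298% in WT at 30 °C. These shares depend on the length used. With the longest transcript, Plin4 had 13.1% in AdC3KO and 12.0% in WT at 4 °C and 18.4% in AdC3KO and 18.1% in WT at 30 °C, Plin5 had 2.98% in AdC3KO and 3.25% in WT at 4 °C and 9.05% in AdC3KO and 9.31% in WT at 30 °C, and Plin3 had 0.203% in AdC3KO and 0.220% in WT at 4 °C and 4.93% in AdC3KO and 4.73% in WT at 30 °C.

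**Figure D3:**
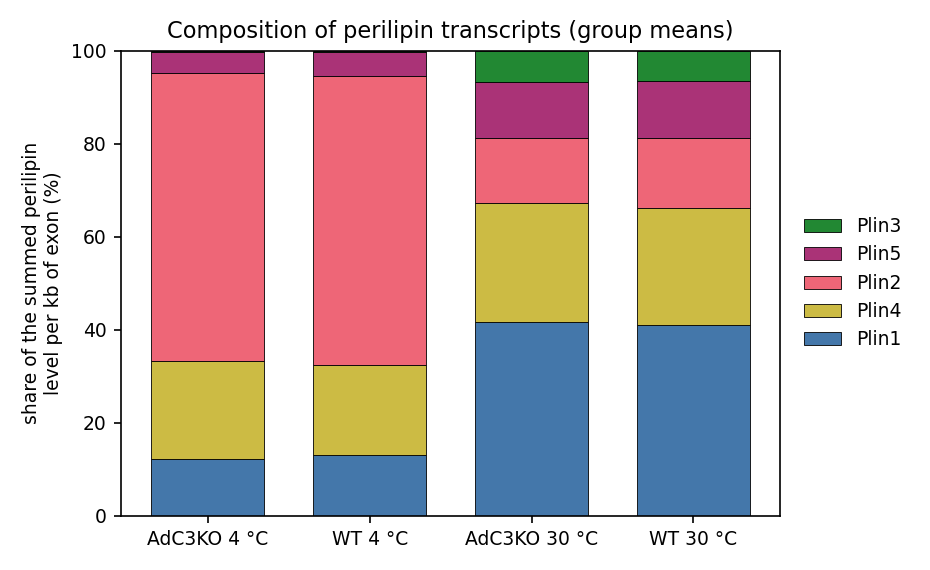
Share of each perilipin gene in the summed CPM per kb of the family (vertical axis, percent; group means stacked) in AdC3KO and WT at 4 °C (n = 4 each) and at 30 °C (n = 3 each). Plin2 fills 61.8% and 62.1% of the bars at 4 °C, while Plin1 is the largest part at 30 °C with 41.6% and 41.0%.

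Ratios within a library do not depend on its scaling. Plin2 stood at 5.11 ± 0.974 times the level of Plin1 per kb in AdC3KO and 4.80 ± 0.857 times in WT at 4 °C (SD, n = 4 per group), against 0.341 ± 0.0664 in AdC3KO and 0.366 ± 0.0367 in WT at 30 °C (SD, n = 3 per group). The lowest library ratio at 4 °C was 4.04 and the highest at 30 °C was 0.417. Plin2 over Plin3 was 196 ± 6.42 in AdC3KO and 185 ± 33.0 in WT at 4 °C, against 2.12 ± 0.278 in AdC3KO and 2.33 ± 0.0596 in WT at 30 °C. The relative levels of these droplet coats therefore differed between temperatures in every library, whichever way libraries are scaled.

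The second question was whether the loss of CLSTN3B changes the coat genes. None of the 5 perilipins was called between AdC3KO and WT at either temperature by edgeR. Few genes were called at all, 0.0502% of those tested at 4 °C and 0.0439% at 30 °C. At an unadjusted p under 0.05, 1 perilipin (Plin3) passed at 4 °C, where 4.8% of all genes did, and 0 at 30 °C, where 1.33% did. DESeq2 called 22 genes at 4 °C and 8 at 30 °C, with no perilipin among them.

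At 4 °C the means were 1077 ± 145 CPM in AdC3KO and, in WT, 1239 ± 299 CPM for Plin1, and 4078 ± 303 CPM in AdC3KO and, in WT, 4400.3 ± 687 CPM for Plin2 (SD, n = 4 per group). The 95% intervals of the fold of AdC3KO over WT were 0.703 to 1.08 for Plin1 and 0.773 to 1.11 for Plin2. For Plin4 the means were 2299 ± 455 CPM in AdC3KO and, in WT, 2247 ± 303 CPM, with a fold interval of 0.823 to 1.27, and for Plin5 they were 179 ± 19.1 CPM in AdC3KO and, in WT, 212 ± 45.9 CPM, with an interval of 0.693 to 1.03. In these 4 genes the libraries of the genotypes overlapped. The adjusted p was 0.963 for Plin1 and Plin5, 0.977 for Plin2 and 0.991 for Plin4 (edgeR). The intervals bound the differences that these libraries leave possible, and a p above the threshold does not show equality.

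Plin3 was the perilipin whose genotypes did not overlap at 4 °C. All 4 AdC3KO libraries (21.3 to 23.4 CPM) lay below all 4 WT libraries (24.8 to 26.7 CPM), and 0.959% of tested genes had AdC3KO below WT in this way (2.27% in either direction). The means were 22.4 ± 1.03 CPM in AdC3KO and, in WT, 25.7 ± 1.0 CPM, with a log2 fold change of −0.20 (SE 0.07, 95% interval −0.35 to −0.05). Its unadjusted p was 0.0138 and its adjusted p 0.963 (edgeR), so that it was not called. These values rest on 448 to 623 counts per library in AdC3KO and 424 to 655 in WT, where counting error is not small beside the spread among libraries. The exact two-sided permutation test gave p = 0.0286, the smallest that 4 against 4 libraries allow. Any gene whose groups do not overlap gets this p, so it adds nothing to the lack of overlap. At 30 °C Plin3 had 145 ± 11.8 CPM in AdC3KO and, in WT, 138 ± 1.46 CPM (SD, n = 3 per group), and the genotypes overlapped.

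At 30 °C all 5 perilipins overlapped between genotypes, where 7.29% of genes did not, and had an adjusted p of 1 (edgeR). The log2 fold changes of AdC3KO over WT were 0.03 for Plin1 (SE 0.17), −0.06 for Plin2 (SE 0.14), 0.08 for Plin3 (SE 0.08), 0.05 for Plin4 (SE 0.17) and −0.03 for Plin5 (SE 0.16). The widest fold interval was that of Plin4, from 0.804 to 1.33. Pooled over both temperatures, the log2 differences between genotypes ran from −0.14 for Plin5 (95% interval −0.35 to 0.08) to 0.04 for Plin4 (−0.20 to 0.28), again with adjusted p of 1, where 0.0815% of genes were called.

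The interaction, which is the log2 change with cold in AdC3KO less the same change in WT, asks whether the deletion alters the response itself. It was −0.24 for Plin1 (95% interval −0.70 to 0.23), −0.05 for Plin2 (−0.45 to 0.35), −0.27 for Plin3 (−0.50 to −0.05), −0.02 for Plin4 (−0.49 to 0.46) and −0.22 for Plin5 (−0.65 to 0.22), on the log2 scale. None was called, with an adjusted p of 1 for each (edgeR), and 0% of all genes were called, by DESeq2 also 0 genes. An unadjusted p under 0.05 was found for 349 genes (2.19%), with Plin3 the 1 perilipin among them. For Plin2 the interval allows a response in AdC3KO between 0.733 and 1.28 times that in WT. The cold response pooled over both genotypes, in which 72.4% of genes were called, gave 3.86 for Plin2 (adjusted p = 1.74e-13), −2.56 for Plin3 (adjusted p = 5.74e-15), 1.43 for Plin4 (adjusted p = 1.36e-08), 0.41 for Plin5 (adjusted p = 0.00219) and 0.07 for Plin1 (adjusted p = 0.583; edgeR).

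The proteins that work with the perilipins were examined next. Of 20 genes for perilipin partners and lipolysis, all tested, 9 rose and 3 fell with cold in AdC3KO (median log2 fold change 0.46), and 9 rose and 2 fell in WT (median 0.40). Over all tested genes the median was −0.06 in AdC3KO and −0.03 in WT, with 31% and 32.1% of genes called higher and lower in AdC3KO and 30.6% and 30.8% in WT. Abhd5, the lipase coactivator that PLIN1 and PLIN5 bind, averaged 211 CPM in AdC3KO at 4 °C against 49.0 CPM in AdC3KO at 30 °C (log2 fold change 2.10, adjusted p = 8.62e-10), and 202 CPM in WT at 4 °C against 48.3 CPM in WT at 30 °C (2.06, adjusted p = 1.05e-09; edgeR). Hspa8, the chaperone that delivers PLIN2 and PLIN3 to lysosomes in mouse cells, averaged 5832 CPM in AdC3KO at 4 °C against 699 CPM at 30 °C, and 4763 CPM in WT at 4 °C against 678 CPM at 30 °C. Its log2 fold change was 3.06 in AdC3KO (adjusted p = 1.04e-10) and 2.81 in WT (adjusted p = 2.1e-10; edgeR).

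Hilpda, an inhibitor of ATGL, also rose, with a log2 fold change of 1.76 in AdC3KO and 1.71 in WT. Pnpla3, a droplet protein related to ATGL, fell, with −2.002 in AdC3KO and −2.03 in WT. Pnpla2, the gene of ATGL itself, was chosen after its values were seen, and did not pass in either genotype (−0.29, adjusted p = 0.0628, in AdC3KO and −0.24, adjusted p = 0.133, in WT; edgeR). The hormone-sensitive lipase gene Lipe, likewise chosen afterwards, fell in AdC3KO (−0.77, adjusted p = 0.0018), and its value in WT was −0.35 (adjusted p = 0.109; edgeR). Between genotypes, 0 of the 20 genes were called at either temperature, and 0 in the interaction.

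Genes for droplet fusion and formation moved in both directions. Of 13 tested of 14 listed, 6 rose and 2 fell with cold in AdC3KO (median log2 fold change 0.08), and 7 rose and 3 fell in WT (median 0.36). Over all tested genes, 31% were called higher and 32.1% lower in AdC3KO, and 30.6% and 30.8% in WT. The enzymes of the last step of triglyceride synthesis parted: Dgat1 rose, with 2.27 in AdC3KO (adjusted p = 2.21e-09) and 2.20 in WT (adjusted p = 3.19e-09), and Dgat2 fell, with −3.09 in AdC3KO (adjusted p = 2.3e-10) and −2.79 in WT (adjusted p = 6.07e-10; edgeR). Fitm2, which helps droplets bud from the endoplasmic reticulum, rose by 1.62 in AdC3KO and 1.76 in WT on the log2 scale. The list holds Clstn3 itself, which was the 1 member called lower in AdC3KO than in WT at each temperature, and which was higher in the cold in AdC3KO as well (2.06, adjusted p = 4.79e-09; edgeR).

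Some perilipin genes are known targets of PPAR nuclear receptors, so receptors and other targets were listed too. Of 25 PPAR target genes that are not perilipins, 17 rose and 2 fell with cold in AdC3KO (median log2 fold change 0.74), and 18 rose and 1 fell in WT (median 0.87). The shares of all tested genes called higher and lower were 31% and 32.1% in AdC3KO and 30.6% and 30.8% in WT. Gk, which makes glycerol-3-phosphate from glycerol, averaged 2133 CPM in AdC3KO at 4 °C against 57.2 CPM at 30 °C, and 2174 CPM in WT at 4 °C against 50.9 CPM at 30 °C. Pdk4, which holds back glucose oxidation, averaged 8173 CPM in AdC3KO at 4 °C against 1715 CPM at 30 °C, and 9410.4 CPM in WT at 4 °C against 1620 CPM at 30 °C. Ehhadh, an enzyme of fat oxidation in peroxisomes, had log2 fold changes of 4.31 in AdC3KO and 5.01 in WT, and the hormone gene Fgf21, close to 0 at 30 °C, stood at 28.5 CPM in cold AdC3KO tissue and 27.8 CPM in cold WT tissue. All 4 were called in either genotype.

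Among 8 PPAR receptors and coactivators, 3 rose and 2 fell in AdC3KO (median log2 fold change 0.10), and 3 rose and 1 fell in WT (median 0.28). The 3 that rose are near the share of all tested genes called higher, 31% in AdC3KO and 30.6% in WT. Called lower were 32.1% of all tested genes in AdC3KO and 30.8% in WT. Ppargc1a, the coactivator of mitochondrial and thermogenic genes, had 4.56 in AdC3KO and 4.50 in WT, against 0.85 in AdC3KO and 0.89 in WT for the receptor gene Pparg and 0.79 in AdC3KO and 0.88 in WT for Ppargc1b. Rxra, the partner receptor, fell by 0.39 in AdC3KO and by 0.25 in WT on the log2 scale. In neither list was a gene called between genotypes or in the interaction.

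**Figure D4:**
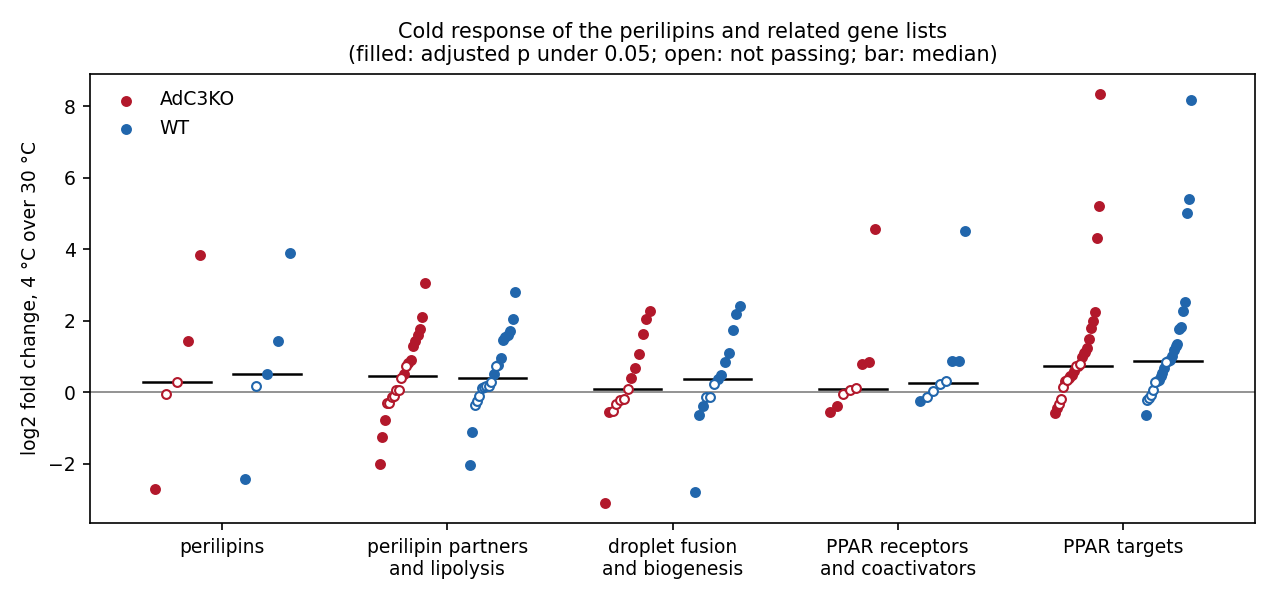
Log2 fold changes of 4 °C over 30 °C (vertical axis) in AdC3KO and WT for the genes of the perilipin, partner, droplet and PPAR lists (points, filled where called), with each list's median as a line. The PPAR target genes have medians of 0.74 in AdC3KO and 0.87 in WT, beside −0.06 and −0.03 over all tested genes.

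Each perilipin was set beside the nearest gene on either side that does not overlap it. Hdgfl2, which overlaps Plin4, was not examined. Lrg1, 2081 bp from Plin5, fell with cold, with log2 fold changes of −0.89 in AdC3KO and −0.98 in WT, whereas Plin4 on the other side of Plin5 rose. Ticam1, 689 bp from Plin3, rose by 0.88 in AdC3KO and 0.81 in WT while Plin3 fell. Pex11a, 3053 bp from Plin1, rose by 0.71 in AdC3KO and 0.91 in WT, and Plin1 was not called. Dennd4c, 78494 bp from Plin2, fell in AdC3KO (−0.36, adjusted p = 0.0145) and had −0.05 in WT (adjusted p = 0.735; edgeR). Kif7, 4497 bp from Plin1, and Ubxn6, 25562 bp from Plin4, were not called in either genotype. Gm12551 and Arrdc5 were too low to be tested. Plin4 and Plin5, themselves neighbours, were both called higher in WT, and of this pair Plin4 alone was called in AdC3KO.

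The genes most like each perilipin were found by the root mean square (RMS) difference of their log2 CPM profiles over the 14 libraries, each profile centred on its own mean, among 9311 genes. For Plin2 they were Acot2, an acyl-CoA thioesterase of mitochondria (RMS 0.148), Atf4, a transcription factor of stress responses (0.173), and the amino acid transporter subunit Slc3a2 (0.214), where the median gene lay at 1.86. For Plin3 they were Pald1 (0.138), the kinase gene Cdk6 (0.149) and the organic cation transporter Slc22a3 (0.162), with a median of 1.36. For Plin4 they were Slc25a51, a mitochondrial carrier (0.112), Sptlc2, a subunit of the enzyme that starts sphingolipid synthesis (0.126), and the transcription factor Klf6 (0.138), with a median of 0.704. Plin1 and Plin5 were closest to genes that changed little, Gsto1, Abhd12 and Acad11 for Plin1 (0.099 to 0.103, median 0.403) and Lypla1, Hsd17b4 and Ubox5 for Plin5 (0.114 to 0.116, median 0.406). The likeness is a description over libraries of both temperatures.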

How the data were processed

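RNA of brown adipose tissue was extracted with TRIzol and RNeasy columns and made into NEBNext Ultra II libraries at GENEWIZ, per the labels' protocols. Reads were handled with Trimmomatic, FastQC, STAR (GRCm38/mm10) and HTSeq, per the submitters' processing notes, and the series' design text names DESeq2; no version, annotation release or strand setting was found in the sources used here. The authors deposited raw counts per Ensembl gene, and 5 summary lines that name no gene were left out (5.95% to 8.19% of a library outside genes, 5.53% to 6.03% ambiguous). Symbols and lengths came from GENCODE by exact identifier (55230 identifiers, 99.57%), and promoters from RefSeq.

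The 14 libraries were grouped by the genotype and treatment labels. The labels name no animals, and the p-values thus cover only the spread among libraries, which may be technical. No pair of a group agreed within sampling noise (chi-square per degree of freedom 16.9 to 83.6), and no batch or collection time is given in the sources used here. Counts were filtered with filterByExpr (minimum count 10; 15949 genes), scaled by TMM (factors 0.822 to 1.21) and tested in 1 fit of 4 group means with the robust quasi-likelihood F-test of edgeR 4.0.16 in R 4.3.3, with Benjamini-Hochberg adjustment at 0.05 over all tested genes. "Called", "rose" and "fell" mean past that threshold. Intervals are 95%. Without molecular identifiers, depth limits only the counting error. Relative to the level, that error is small for Plin1, Plin2, Plin4 and Plin5. It is larger for Plin3 at 4 °C, which had 424 to 655 counts per library, and its part in the spread of Plin3 was not tested. DESeq2 1.42.0, other scalings, filters, a replicate block and left-out libraries were alternatives. Named genes were, of each list, up to 4 called members with the largest change in WT. Also named were the 3 genes most like each perilipin (at least 5 CPM) and the nearest neighbours that do not overlap it. The perilipins and all lists were chosen with earlier results of these data known.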

Additional observations from a re-analysis of the deposited data

How the results depend on the processing

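Under 22 alternatives the cold calls of Plin2, Plin3 and Plin4 kept their direction and passed in both genotypes. Log2 fold changes ranged over 3.60 to 3.97, −2.93 to −2.65 and 1.05 to 1.56 in AdC3KO, and over 3.64 to 3.98, −2.66 to −2.40 and 1.19 to 1.52 in WT. Plin5 passed in WT in 21 of 22 (adjusted p 0.000917 to 0.113) and in AdC3KO in 4 of 22 (0.0197 to 0.735), and no perilipin was called between genotypes or in the interaction in any. Upper-quartile scaling moved the median log2 cold change of all genes to −0.29 in AdC3KO and −0.27 in WT, and called 3737 genes higher and 6542 lower in AdC3KO (4937 and 5113 with TMM) and 3640 and 6415 in WT (4879 and 4908). It gave Plin5 0.27 and Plin1 −0.053 in WT, and −0.17 for Plin1 pooled over genotypes. Pooled Plin1 was −0.024 with no filter and −0.10 with a filter at a mean of 5 CPM. Same-numbered libraries did not pair (deviations correlated at −0.295 to 0.039, and 0 of 8 libraries at 4 °C and 0 of 6 at 30 °C matched their own number best). The replicate block gave 0.018 for Plin1 and 0.39 for Plin5 (adjusted p = 0.0197, edgeR) in AdC3KO cold, and 1 gene lower in AdC3KO over both temperatures. With only the groups compared, Plin5 was 0.29 in AdC3KO cold (adjusted p = 0.0337, edgeR), and genotype counts were 5 lower at 30 °C and 4 higher at 4 °C. Genotype counts were 11 higher at 4 °C with no filter. The 5 CPM filter gave 3 higher at 30 °C, 4 higher at 4 °C, and 5 higher and 1 lower pooled. DESeq2 gave 15 higher and 7 lower at 4 °C and 6 lower pooled. Without the 5 libraries with muscle transcripts, 3279 genes fell in AdC3KO cold. Genotype counts were then 1 higher at 30 °C, 2 higher at 4 °C, and 4 higher and 1 lower pooled. Genotype differences in log2 were 0.20 for Plin2 and 0.21 for Plin5 at 30 °C, −0.13 for Plin4 at 4 °C, and 0.071 for Plin2 and 0.001 for Plin3 pooled. With these libraries left out, AdC3KO at 30 °C had 1 library, on which the values at 30 °C and the pooled values rest. Leaving out 1 library at a time gave, in AdC3KO cold, −0.115 to 0.037 for Plin1 and 0.24 to 0.38 for Plin5, called without WT at 4 °C replicate 1 (adjusted p = 0.0351) or 4 (adjusted p = 0.0359; edgeR). It gave −0.001 to 0.271 for Plin1 in WT cold and −0.018 to 0.122 pooled. Between genotypes at 30 °C it gave −0.054 to 0.116 for Plin1, −0.193 to 0.024 for Plin2, −0.083 to 0.17 for Plin4 and −0.116 to 0.069 for Plin5, with 3 to 6 genes higher (3 without WT at 30 °C replicate 1 or 3). At 4 °C it gave −0.085 to 0.128 for Plin4 and 1 to 2 genes lower. Pooled over temperatures it gave −0.128 to 0.008 for Plin1 and −0.025 to 0.102 for Plin4, with 6 to 11 genes higher and 1 to 4 lower. The interaction ran from −0.134 to 0.084 for Plin2 and from −0.136 to 0.117 for Plin4. The cause of these changes was not tested. With the longest transcript as length, Plin2 made up 71.1% of the family in AdC3KO and 71.2% in WT at 4 °C, and Plin1 49.0% in AdC3KO and 48.1% in WT at 30 °C.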
